A study of Mus musculus with 2 samples.

Results

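The antigen presentation genes described here were 9 named genes: the class II genes H2-Aa, H2-Ab1, H2-Eb1 and Cd74, their regulator Ciita, the class I genes H2-K1, H2-D1 and B2m, and the class I regulator Nlrc5. They were chosen by name among 21755 protein-coding genes of chromosomes 1 to 19 and X, by a rule that uses no measured value, although earlier results of these data were known when they were chosen. Their accessibility was read from single-cell ATAC-seq, in which a transposase cuts open chromatin of each nucleus, in bone marrow hematopoietic stem cells (HSCs) of wild-type C57BL/6 mice. The sort kept cells positive for Sca-1, c-kit and CD150 and negative for lineage markers, CD34, CD48, Flt3 and the label given as IL-7. There were 2 libraries, 1 from 10-week-old (young) and 1 from 20-month-old (aged) mice, and the mice pooled in each are not given in the sources used here. With 1 library per age there was no test of age, age and library cannot be told apart, and the 95% intervals below are exact and cover counting error only.

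Of the barcodes that the authors called as cells, those with 3000 to 20000 fragments in the authors' peaks were kept. These were 4887 of 5028 barcodes of the young library and 3405 of 3694 of the aged one. They held 50065741 and 38659456 unique nuclear fragments, with medians per cell of 9888 and 11019. Fragments shorter than the length wrapped around a nucleosome (short fragments) made up 59.8% of young and 55.0% of aged fragments. The kept cells of the libraries shared 26 barcode sequences, and leaving these out moved no promoter or gene body value past its counting interval. Levels are given in FPM, the fragments of a region per 1e6 in-peak fragments of the kept cells, here in peaks called anew and not the authors' peaks. Ratios are given as log2(aged/young), so that a positive ratio means higher in the aged library.

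MHC class II molecules carry peptides taken up from outside the cell to CD4+ T cells, and are known best from B cells, dendritic cells and macrophages. Class I molecules carry peptides made inside nearly every cell to CD8+ T cells. Both gene groups are switched on through a conserved promoter module, the X and Y boxes, bound by the RFX complex, CREB-family factors and NF-Y, on which CIITA acts at class II genes and NLRC5 at class I genes. Neither CIITA nor NLRC5 binds DNA on its own.

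Letters of this module were looked for in the reference sequence before the start sites. Those searched on both strands, within 250 bases before a start, were AGNAAC (RFX core of the X box), TGACG (the core of a cyclic AMP element) and CCAAT (NF-Y, read as ATTGG on the other strand). The last 120 bases before the starts, in the direction of the gene, are printed for the class II chains and for B2m as a class I gene, because the accessibility below peaks on or beside them. Capitals mark these letters on either strand.
H2-Eb1, chr17:34305747-34305866, plus strand: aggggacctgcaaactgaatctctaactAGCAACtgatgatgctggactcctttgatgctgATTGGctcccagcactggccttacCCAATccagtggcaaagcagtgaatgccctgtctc
H2-Ab1 coding start, chr17:34263089-34263208, plus strand: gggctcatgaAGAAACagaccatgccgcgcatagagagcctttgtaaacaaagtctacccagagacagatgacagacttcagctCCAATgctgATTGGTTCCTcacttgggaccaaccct
H2-Aa, chr17:34287824-34287943, minus strand: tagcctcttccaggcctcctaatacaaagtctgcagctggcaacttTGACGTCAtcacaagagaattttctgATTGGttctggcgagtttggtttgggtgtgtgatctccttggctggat
B2m, chr2:122147566-122147685, plus strand: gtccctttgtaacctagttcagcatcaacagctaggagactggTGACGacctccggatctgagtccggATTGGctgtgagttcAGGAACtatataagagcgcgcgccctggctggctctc

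All 4 held ATTGG in this stretch. In H2-Eb1 an AGNAAC began 92 bases before the start and was followed after 27 bases by ATTGG, the order known for the X and Y boxes. It was the only one of 11 member promoters to hold AGNAAC 25 to 60 bases before ATTGG, which 1.70% of all 21755 protein-coding promoters did. The H2-Aa stretch had TGACG on both strands, overlapping from 74 bases before the start, and B2m had it 77 bases before the start. In the H2-Ab1 stretch an inverted CCAAT ran into an inverted AGNAAC. Over the 11 member promoters CCAAT matched in 6, AGNAAC in 8 and TGACG in 3, beside 35.8%, 42.3% and 19.4% of all promoters. These counts use the annotated 5' ends. That of H2-Ab1 held no CCAAT, while its coding start held 2. At H2-D1 the most open 100 bp began 200 bp after the 5' end, outside the bases searched. A match says only that the letters are there.

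Ciita has 3 groups of start sites in the annotation, and its most downstream one, promoter 3, was the open one in these cells (values below). In order along the gene it corresponds to the promoter known as IV, which responds to interferon-gamma through a STAT site, an E box and an interferon regulatory factor site. The 140 bases before it are printed with capitals on TTCNNNGAA (STAT), CACGTG (E box) and GAAANNGAA (interferon-stimulated element), in that order. Of all promoters 6.95%, 6.58% and 7.25% held these letters.
Ciita promoter 3, chr16:10489606-10489745, plus strand: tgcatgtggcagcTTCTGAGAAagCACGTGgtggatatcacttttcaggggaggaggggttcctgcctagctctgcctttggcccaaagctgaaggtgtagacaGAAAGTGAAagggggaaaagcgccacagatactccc

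At the promoters, Cd74, H2-Aa, Ciita promoter 3 and the coding start of H2-Ab1 stood higher in the aged library, by 1.13-fold (H2-Aa) to 1.32-fold (Cd74), while H2-Eb1, Nlrc5 and the annotated 5' end of H2-Ab1 were level within counting error and the class I genes, at their annotated 5' ends, lay close to the shift of all promoters. A promoter here is 1 kb on either side of the annotated start. Of 11 member promoters, 10 had at least 50 fragments over both libraries, and of these 2 (Cd74 and Ciita promoter 3) were higher in the aged library by 25% or more, while 9.48% of 15978 protein-coding promoters were. None of the 10 was lower by as much (the young level at least 25% above the aged), which 3.99% of all promoters were. The median ratio of the 10 was 0.02 and that of all promoters -0.054. Over so few promoters these counts single out nothing about the members as a set.

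**Figure D1:**
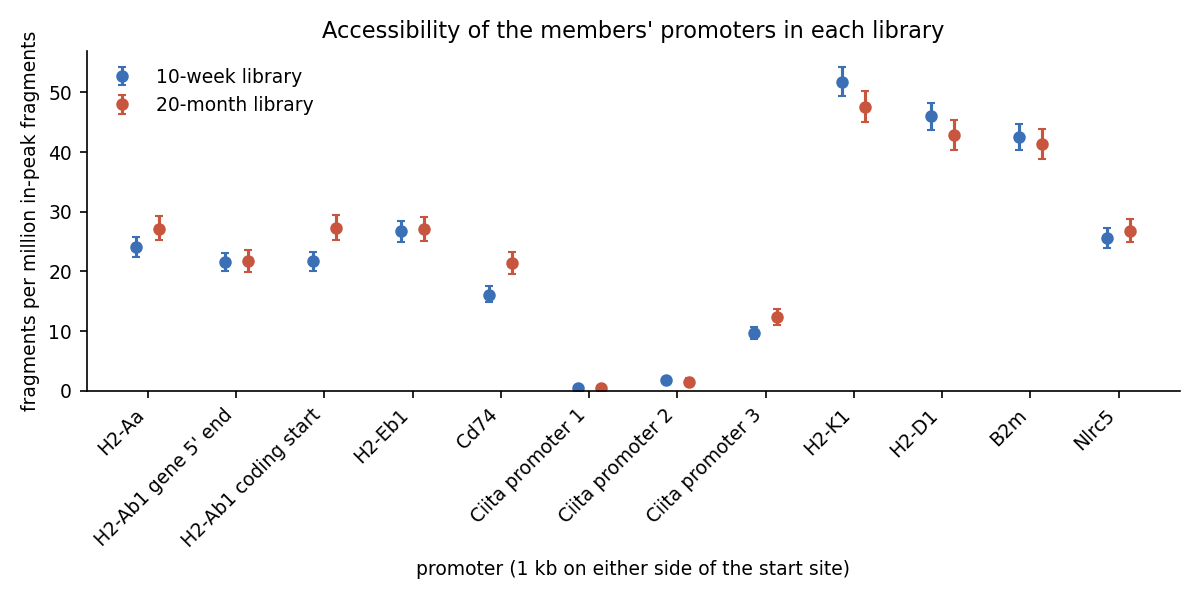
FPM within 1 kb on either side of each start site, in the 10-week (blue) and 20-month (red) library, with exact 95% Poisson intervals of counting error and 1 library per age. The class I genes H2-K1, H2-D1 and B2m lie between 41.3 and 51.8, the class II genes between 16.1 and 27.3, and only promoter 3 of the Ciita promoters lies above 2.

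H2-Aa encodes the alpha chain of the class II molecule I-A, and its promoter (start at chr17:34287823, minus strand) had 24.1 FPM in young and 27.2 in aged cells (835 and 711 fragments). Its ratio was 0.17 (0.03 to 0.32). H2-Ab1 encodes the beta chain, and its annotated 5' end (chr17:34257689) belongs to a transcript that starts 5520 bp before the start of its coding transcripts (chr17:34263209). The 5' end had 21.6 FPM in young and 21.7 in aged cells, and the ratio was 0.01 (-0.15 to 0.17). The coding start had 21.7 and 27.3 FPM (751 and 714 fragments), a ratio of 0.33 (0.18 to 0.48), or 1.26-fold. It was past 25% in 9 of 12 alternative settings, where it ran from 0.24 to 0.39, and it was added as a further start after values were seen. Among these settings, a lower minimum of fragments leaves any ratio unchanged.

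H2-Eb1 encodes the beta chain of the other class II molecule, I-E, which C57BL/6 mice do not display because they lack a working alpha chain gene. Its promoter (chr17:34305867) had 26.7 FPM in young and 27.1 in aged cells, and the ratio was 0.02 (-0.12 to 0.16). At this promoter window the difference between libraries was within counting error.

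Cd74, the invariant chain that guards the class II groove, had a promoter (chr18:60803848) at 16.1 FPM in young and 21.3 in aged cells (558 fragments in each, before scaling). Its ratio was 0.41 (0.23 to 0.58), the highest of the 10, and 1.32-fold. With short fragments alone the ratio was 0.29, and with 2 kb on either side 0.27, both short of 25%. Sites within the gene went either way. The peak at its start had 12.7 and 16.3 FPM (ratio 0.36, 0.16 to 0.55), whereas an intronic peak 3502 bp into the gene (chr18:60807067-60807632) had 22.7 and 17.4 FPM (ratio -0.38, -0.55 to -0.22). Intronic peaks 1195 and 1971 bp in had ratios of 0.33 (0.07 to 0.60) and -0.04 (-0.20 to 0.13). Over the whole gene body the ratio was -0.04 (-0.13 to 0.05).

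Summed over the class II genes with H2-Ab1 at its coding start, the 4 promoters had 88.6 FPM (85.5 to 91.8) in young and 103 (99.1 to 107) in aged cells, and the ratio was 0.22 (0.14 to 0.29). With H2-Ab1 at its annotated 5' end the ratio was 0.14 (0.06 to 0.21). The sum therefore stood higher in the aged library beyond counting error in either version, and by less than 25%. On the scale of fragments at protein-coding promoters the ratios were 0.27 (0.19 to 0.34) and 0.19 (0.11 to 0.26).

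**Figure D2:**
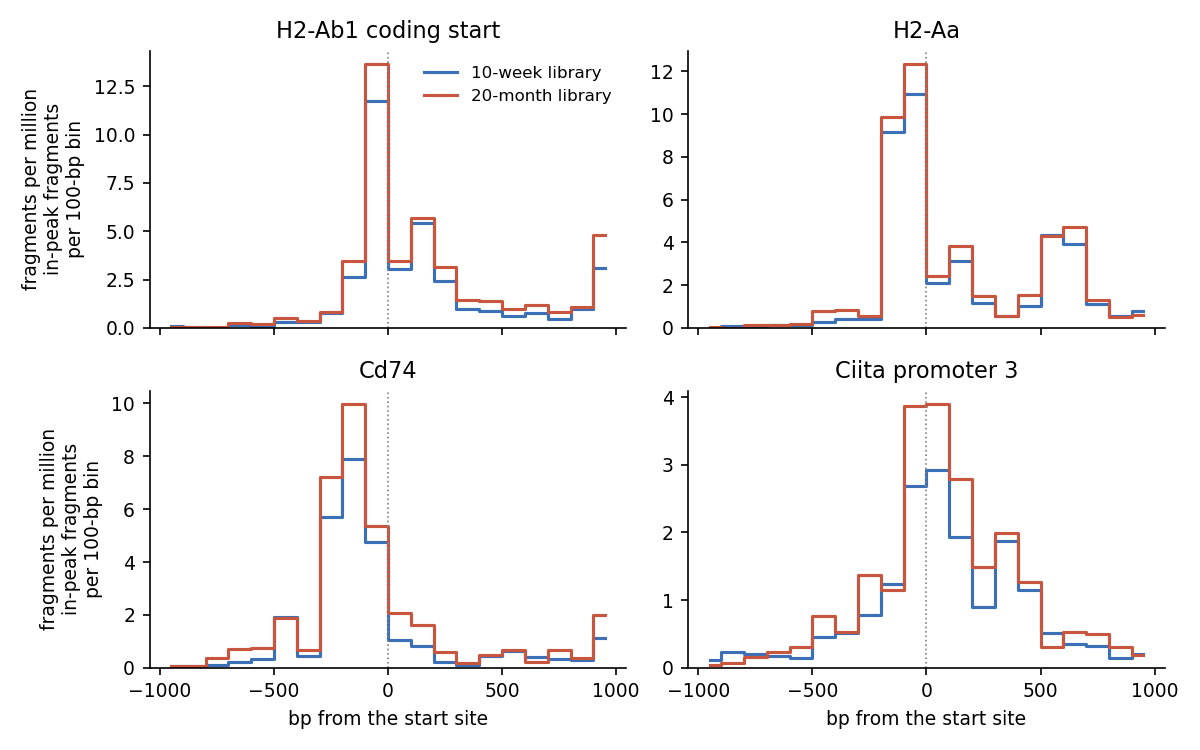
FPM in 100-bp bins from 1000 bp before to 1000 bp after the start site, in the direction of the gene, for 4 promoters of the class II side in the 10-week (blue) and 20-month (red) library. The highest bin of H2-Ab1 and H2-Aa is the last 100 bp before the start, where H2-Ab1 had 11.7 and 13.7, and the 4 drawn are the class II and Ciita promoters whose ratio had an interval above 0.

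The most open 100 bp of each of these promoters lay at the same place in both libraries. In the 100 bp before the H2-Ab1 coding start, which hold the printed CCAAT letters, there were 11.7 FPM in young and 13.7 in aged cells, and at H2-Aa 10.9 and 12.4. At Cd74 the highest bin lay 100 to 200 bp before the start, with 7.91 and 9.98 FPM. At Ciita promoter 3 it lay in the first 100 bp after the start, with 2.92 and 3.90 FPM. H2-Eb1, which is not drawn, had 12.3 and 11.7 FPM in the last 100 bp before its start, and the annotated 5' end of H2-Ab1 had 13.5 and 13.0 FPM in its highest bin.

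Ciita encodes the class II transactivator. Promoter 1 (start at chr16:10480059), known as the dendritic cell promoter, had 0.548 FPM in young and 0.497 in aged cells from 19 and 13 fragments. Promoter 2 (chr16:10488178), which by its order is the B cell promoter, had 1.82 and 1.53 FPM from 63 and 40 fragments, a ratio of -0.24 (-0.86 to 0.34). Part of its window is shared with promoter 3. Promoter 3 (chr16:10489746) had 9.61 FPM in young and 12.3 in aged cells (333 and 322 fragments), and the ratio was 0.36 (0.13 to 0.58), or 1.28-fold. It was past 25% in 12 of 13 alternatives, with 0.31 for 2 kb on either side. Some of these alternatives, among them the minimum of fragments and the coding start, leave its ratio unchanged. The gene body as a whole had a ratio of 0.01 (-0.10 to 0.11), and an intronic peak 21960 bp into the gene (chr16:10501729-10502309) was lower in the aged library, at 4.04 and 2.45 FPM (ratio -0.71, -1.17 to -0.29). That peak was chosen after its values were seen.

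H2-K1 and H2-D1 encode the class I heavy chains of this strain. The H2-K1 promoter (chr17:34000347, minus strand) was the most open of the members, with 51.8 FPM in young and 47.6 in aged cells, and the ratio was -0.12 (-0.23 to -0.02). H2-D1 (chr17:35262730) had 46.0 and 42.8 FPM, a ratio of -0.10 (-0.21 to 0.01). At the start shared by the largest number of its coding transcripts the ratio was 0.43, past 25%. That window held far fewer fragments, missed the most open site of the gene, and has no interval here. The most open 100 bp of the annotated window began 200 bp after the annotated 5' end, with 23.1 FPM in young and 21.4 in aged cells. B2m, the light chain of all class I molecules, had a promoter (chr2:122147686) at 42.5 and 41.3 FPM, a ratio of -0.04 (-0.16 to 0.07). Summed at the annotated 5' ends, the 3 class I promoters had 140 FPM in young and 132 in aged cells, and the ratio was -0.09 (-0.16 to -0.03), beside the median of -0.054 over all promoters. On the scale of fragments at protein-coding promoters the class I ratio was -0.04 (-0.10 to 0.02), within counting error. Summed at the starts of most coding transcripts, an alternative added after values were seen, they had 100.6 and 97.3 FPM, a ratio of -0.05 (-0.12 to 0.03). The 3 windows then held 3486 and 2545 fragments, beside 4860 and 3443 at the annotated 5' ends. Nearly all of the smaller sum came from H2-K1 (1795 and 1244 fragments) and B2m (1473 and 1080), whose counts are the same at both starts. It therefore says little about H2-D1, whose level at its coding start is not given. Class I heavy chain genes have close copies: 11.3% of the 50-base stretches in the H2-K1 window and 3.28% in the H2-D1 window occur elsewhere on the chromosomes, most often in H2-Q4 and in each other, so reads there could be lost or split. None of the stretches around H2-Aa, H2-Ab1, H2-Eb1 or Ciita did, and 0.666% of those around Cd74.

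Nlrc5, the class I transactivator, had a promoter (chr8:94434356) at 25.5 FPM in young and 26.8 in aged cells, and the ratio was 0.07 (-0.08 to 0.21). Its further starts within the gene were nearly closed, with 16 to 32 fragments per library. The regulator of class I was thus less open than the class I genes and more open than Ciita promoter 3 in both libraries. Among all protein-coding promoters, H2-K1 stood at percentile 89.1 in the young library, Nlrc5 at 62.3, H2-Aa at 60.7, Cd74 at 51.6 and Ciita promoter 3 at 43.6.

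**Figure D3:**
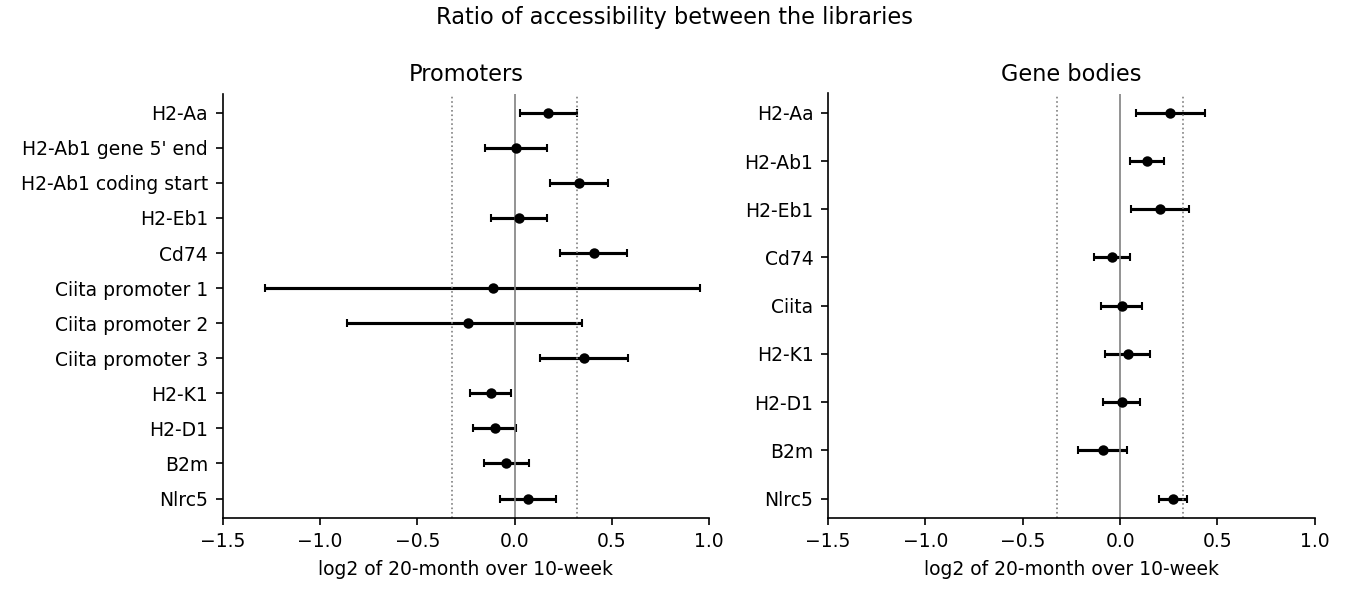
Log2 of the 20-month over the 10-week level for the members' promoters (left) and gene bodies (right), with exact 95% intervals of counting error and dotted lines at 25% in either direction. Promoters of Cd74, H2-Ab1 (coding start) and Ciita lie above the upper line, at 0.41, 0.33 and 0.36, and no gene body passes a line.

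Over the gene bodies, none of the 9 members was past 25% in either direction, beside 9.17% of 18444 protein-coding gene bodies higher and 3.24% lower. Nlrc5 came nearest, with 3139 fragments in young and 2861 in aged cells, and the ratio was 0.27 (0.20 to 0.35). H2-Aa had 0.26 (0.08 to 0.43), H2-Eb1 0.21 (0.06 to 0.35) and H2-Ab1 0.14 (0.05 to 0.23). B2m was the lowest at -0.09 (-0.22 to 0.04). Per kb of gene, levels ran from 0.975 FPM in Nlrc5 to 12.2 FPM in H2-D1 in the young library. Without the promoter window, H2-Aa was past 25% at 0.38 (0.03 to 0.74), Nlrc5 had 0.30 (0.22 to 0.38), H2-D1 0.25 (0.08 to 0.42), H2-K1 0.24 (0.06 to 0.41) and H2-Ab1 0.20 (0.09 to 0.30). H2-Eb1 had 0.14 (-0.02 to 0.31), Ciita 0.01 (-0.09 to 0.11), Cd74 -0.09 (-0.18 to 0.01) and B2m -0.12 (-0.30 to 0.06), with intervals that hold 0.

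In the 20 kb on either side of the gene bodies, bins of 500 bp were counted. Of 635 such bins, each taken once, 164 had at least 50 fragments, and 16 of them (9.76%) were higher in the aged library by 1.5-fold or more, beside 9.36% of 130662 bins flanking all protein-coding genes. None was lower by 1.5-fold, beside 4.92%. Of the 16, 8 lay after the end of Nlrc5, 4 in the class II block, 2 around H2-D1 and 2 after B2m, and none in the flanks of Cd74, Ciita or H2-K1. The flanks of the class II genes hold one another's promoters and bodies, so these bins are not separate from the values above.

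**Figure D4:**
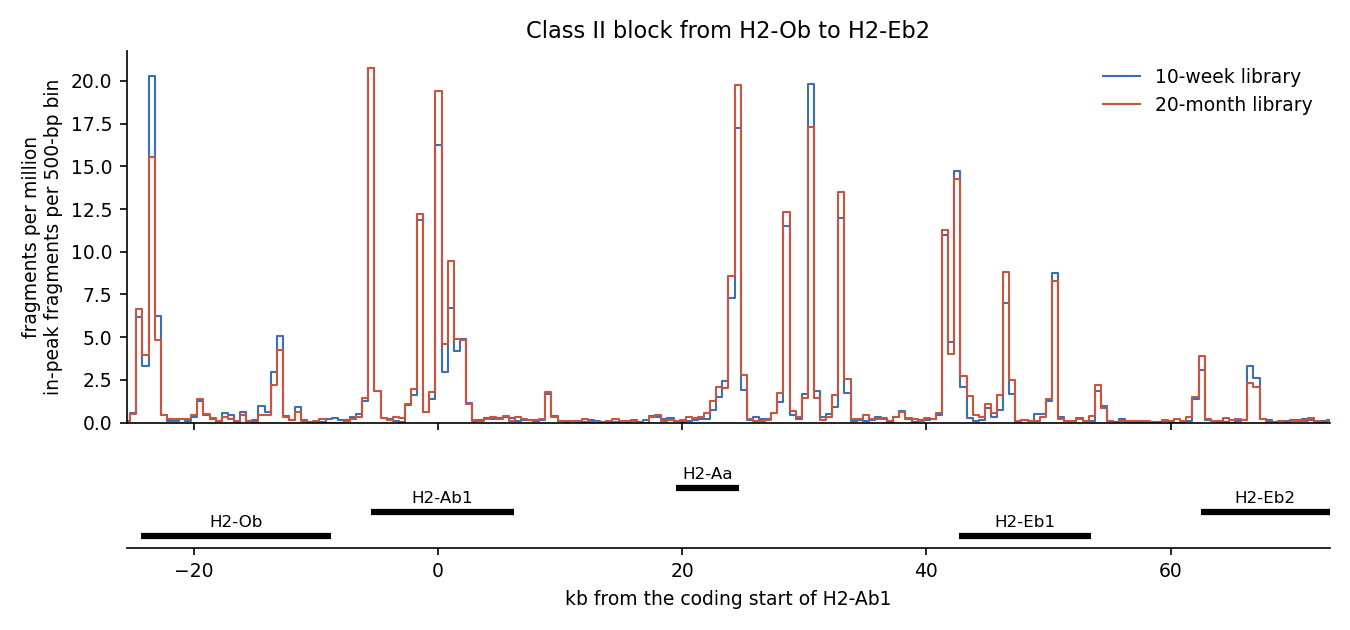
FPM in 500-bp bins along the class II block, by distance in kb from the coding start of H2-Ab1, in the 10-week (blue) and 20-month (red) library, with gene bodies as black bars. The peaks stand at the same places in both libraries, with red higher at the coding start of H2-Ab1 (0 kb) and at the start of H2-Aa, and blue higher in H2-Ob and at the tallest site between H2-Aa and H2-Eb1.

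Along the class II block the open sites stood at the same places in both libraries and differed in height in both directions. The intron of H2-Ab1 just after its coding start (chr17:34263501-34264000) had 2.94 FPM in young and 4.63 in aged cells, and the ratio was 0.65 (0.26 to 1.05). Among 52690 flank bins of all genes with at least 200 fragments, 1133 (2.15%) had as large a ratio. The most open bin between H2-Aa and H2-Eb1 (chr17:34293501-34294000), where no protein-coding gene is annotated, had 19.8 and 17.3 FPM, a ratio of -0.19 (-0.37 to -0.02). A bin in an intron of H2-Ob (chr17:34239501-34240000), a chain of the peptide editor H2-O, had 20.3 and 15.6 FPM, a ratio of -0.38 (-0.56 to -0.20). A bin in H2-Eb1 884 bp after its start had only 10 fragments in young and 40 in aged cells, and the ratio was 2.30 (1.38 to 3.57), and was chosen after its values were seen.

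The bins with most fragments near H2-K1 and H2-D1 were lower in the aged library, and the next ones were level within counting error. After H2-K1, the bin at chr17:33981001-33981500 had 32.9 and 28.7 FPM, a ratio of -0.20 (-0.33 to -0.06), and the next (chr17:33978501-33979000) had 24.9 and 24.5 FPM, a ratio of -0.02 (-0.17 to 0.13). The latter bin holds the annotated start of H2-K2. Before H2-D1, the bin at chr17:35259001-35259500 had 19.4 and 15.5 FPM, a ratio of -0.32 (-0.50 to -0.14), and the next (chr17:35258001-35258500) had 17.7 and 16.7 FPM, a ratio of -0.08 (-0.26 to 0.10). The most open flank bins of B2m, Cd74 and Ciita differed little. That of B2m (chr2:122164001-122164500) had 17.6 FPM in both libraries, that of Cd74, in an intron of Tcof1, had 24.2 and 24.97, and that of Ciita, 197 bp from the start of Dexi, had 32.5 and 29.4 (ratio -0.14, -0.28 to -0.01). The bin of largest difference near B2m (chr2:122161501-122162000) lay 14065 bp after its start, within introns of Patl2 and Trim69, and had 2.89 FPM in young and 6.62 in aged cells, and the ratio was 1.19 (0.83 to 1.57). As large a ratio was found in 199 of the 52690 bins, or 0.378%.

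**Figure D5:**
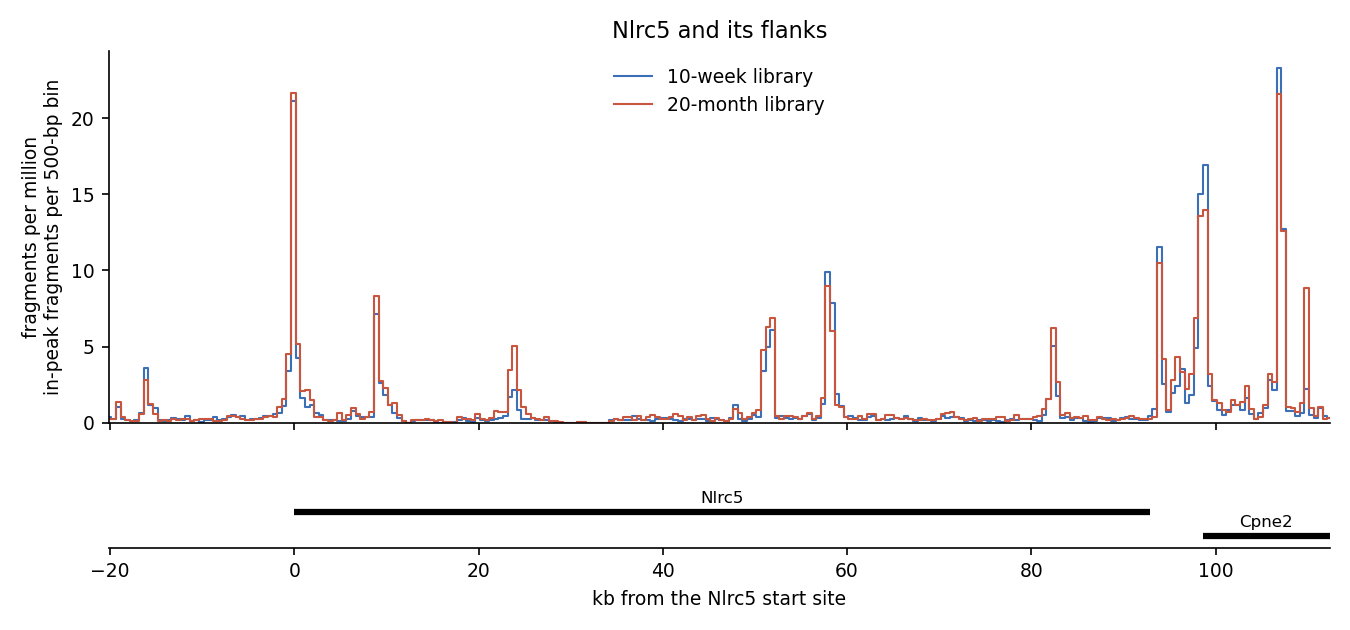
FPM in 500-bp bins along Nlrc5 and 20 kb on either side, by distance in kb from its start site, in the 10-week (blue) and 20-month (red) library, with gene bodies as black bars. The start site is level in both libraries, while red is higher near 24 kb and near 110 kb, where the bin had 2.22 and 8.83.

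The largest difference with at least 200 fragments in any of these flanks was after Nlrc5, 109895 bp from its start and within an intron of Cpne2, the next gene, which encodes a calcium-dependent lipid-binding protein. The bin chr8:94544001-94544500 had 77 fragments (2.22 FPM) in young and 231 (8.83 FPM) in aged cells, and the ratio was 1.98 (1.61 to 2.38) or 3.94-fold. As large a ratio was found in 38 of the 52690 bins, or 0.0721%. The bin just after the Cpne2 start was lower in the aged library, at 16.9 and 14.0 FPM (ratio -0.27, -0.47 to -0.09). The most open Cpne2 intron bin, 3 kb closer to Nlrc5, had 23.3 and 21.6 FPM (ratio -0.11, -0.27 to 0.05). Within Nlrc5, an intronic peak 23690 bp after the start (chr8:94457803-94458288), chosen after its values were seen, had 2.57 and 5.32 FPM, a ratio of 1.04 (0.65 to 1.45). A larger intronic peak 51362 bp in had 10.6 and 12.8 FPM (ratio 0.27, 0.06 to 0.49), and one over an exon 57988 bp in had 14.1 and 12.0 FPM (ratio -0.23, -0.44 to -0.03).

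The central 200 bases of the site in the Cpne2 intron are printed because its bin differed most between the libraries among these flank bins with at least 200 fragments. Capitals mark the RFX core AGNAAC, the cyclic AMP core TGACG and the interferon-stimulated letters GAAANNGAA on either strand, and the last of these overlaps an RFX core. The site was chosen by its value, and a match is a description. Of the central 200 bases of all 164570 peaks, 43.4%, 9.69% and 8.58% held these letters.
Cpne2 intron site, chr8:94544095-94544294, plus strand: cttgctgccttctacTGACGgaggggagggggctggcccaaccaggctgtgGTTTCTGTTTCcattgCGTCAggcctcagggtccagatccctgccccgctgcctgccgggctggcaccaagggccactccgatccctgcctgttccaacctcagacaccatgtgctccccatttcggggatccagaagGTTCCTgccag

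The genes that load peptides and those that drive the promoters were read from 5 lists. Class I peptide loading had 0 of 13 promoters past 25% in either direction (9.48% and 3.99% of all promoters) and a median of -0.07. Its ratios ran from -0.22 (-0.32 to -0.12) at Tapbp to 0.21 (0.04 to 0.38) at Tap2, both beyond counting error. Calr, a chaperone of heavy chain assembly, was its most open gene in the young library, with 90.5 FPM in young and 84.1 in aged cells. Its ratio was -0.11 (-0.19 to -0.03). Psme2 was the most open in the aged library, with 89.8 and 85.3 FPM (ratio -0.07, -0.15 to 0.01). Of the interferon-gamma signalling list, 0 of 8 were past 25%, and none of the 8 ratios was above 0 (5702 of 15978 over all promoters), with a median of -0.09 and Socs1, an inhibitor of JAK signalling, as the most open gene at -0.03. Of the MHC promoter-binding factors, 0 of 6 with enough fragments were past 25%, with a median of -0.09, and Nfya, a subunit of NF-Y, was the most open at -0.13. The annotated 5' end of Nfyc had 7 and 6 fragments and was not counted. On the promoter scale, where the median of all promoters is -0.0027, these medians were -0.043 and -0.038.

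The companions of class II, which edit and load peptides or costimulate T cells, had 2 of 11 ratios above 0, beside 5702 of 15978 over all promoters. Of the 11 with enough fragments, 1 was higher and 3 were lower by 25% or more in the aged library (9.48% and 3.99% of all promoters), with a median of -0.15 beside -0.054 for all promoters. On the promoter scale 2 were lower (3.15% of all promoters). On the nuclear scale or in all called cells 0 were higher (8.39% and 9.36% of all promoters). Cathepsin S (Ctss), which cuts the invariant chain, had 8.20 FPM in young and 5.35 in aged cells, and the ratio was -0.61 (-0.92 to -0.32). Cd86, a costimulatory ligand for T cells, had 16.1 and 10.9 FPM, a ratio of -0.55 (-0.76 to -0.35). H2-DMb2, a chain of the peptide exchanger H2-M, had 19.8 and 15.5 FPM at its annotated 5' end (ratio -0.35, -0.53 to -0.17). At the start shared by the largest number of its coding transcripts the ratio was -0.14. H2-Eb2, a class II gene beside H2-Eb1, had 3.78 and 4.82 FPM (ratio 0.35, -0.01 to 0.71), an interval that holds 0. The most open gene of the list, H2-DMa, was level at 60.5 and 60.2 FPM.

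Among 13 other class I and class I-like genes, 2 were higher by 25% or more and none lower (9.48% and 3.99% of all promoters), with a median of -0.04. H2-Q2 had 10.7 and 14.1 FPM (ratio 0.41, 0.20 to 0.62) and H2-Q10 had 7.30 and 9.94 FPM (ratio 0.44, 0.19 to 0.70), whereas the most open, H2-Q4, had 48.4 and 44.4 FPM (ratio -0.12, -0.23 to -0.02). Genes of the H2-Q group are near-copies of one another and of H2-K1 and H2-D1, so these values are uncertain.

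In single cells, fragments at these promoters were thinly spread. Cells were thinned to 4000 fragments each, which left 4836 young and 3351 aged cells and left out 51 and 54 shallower ones. A fragment at any of the 4 class II promoters (H2-Ab1 at its coding start) was found in 22.3% (21.1 to 23.5) of young and 24.8% (23.3 to 26.3) of aged cells. The intervals overlap slightly. With cells thinned to 6000 fragments, which left out 508 young and 455 aged cells, the intervals did not overlap. The shares were then 30.6% (29.2 to 31.97) and 34.3% (32.6 to 36.05). The share depends on the start used for H2-Ab1. At 4000 fragments its coding start was seen in 5.87% of young and 7.10% of aged cells, and its annotated 5' end in 5.77% and 5.91%. At 6000 fragments the coding start was seen in 8.56% and 10.3%, and the annotated 5' end in 8.06% and 8.78%. A class II share with the annotated 5' end was not computed. The intervals of these shares run over cells of 1 library per age. For the class I promoters the share at 4000 fragments was 32.2% (30.8 to 33.5) of young and 30.7% (29.2 to 32.3) of aged cells. Without thinning the class II shares were 45.1% and 52.1% and the class I shares 60.9% and 59.97%. By gene, the thinned shares ran from 0.248% of young and 0.0597% of aged cells at Ciita promoter 1 to 13.6% and 12.3% at H2-K1. Ciita promoter 3 was seen in 2.71% of young and 3.34% of aged cells and Cd74 in 4.59% and 5.73%.

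The variance of the class II count per cell was 0.994 times its mean in young and 1.05 times in aged cells, close to the 1 of fragments scattered at random. Fragments at 2 class II promoters at once were found in 98 young and 78 aged cells (2.03% and 2.33%). They were found at 3 promoters in 3 and 6 cells (0.062% and 0.179%), and at all 4 in none. Without thinning they were found at 3 promoters in 57 and 86 cells (1.17% and 2.53%) and at all 4 in 4 and 4 (0.0818% and 0.117%). The variance was then 1.11 and 1.15 times the mean, a value that the unequal depth of cells also enters. At the thinned depth, a small group of cells with all class II genes open could not be told from scatter.

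Marker genes of cell types were read as a description of the sorted cells. The HSC list holds Kit, Ly6a and Slamf1, which encode the sort markers c-kit, Sca-1 and CD150, so it is no independent check of the sort. The promoters of 8 HSC genes stood at a median percentile of 51.6 in young and 51.9 in aged cells, and those of 6 lists of B, dendritic, macrophage, T, granulocyte and erythroid genes at 28.8 to 37.7 in young and 24.5 to 37.4 in aged cells. No marker was at 0 in either library over its gene body with 2 kb upstream, the region used for the levels that follow. The summed level of the 8 B cell genes was 338 FPM in young and 342 in aged cells, that of the 8 dendritic cell genes 330 and 289, and that of the 8 macrophage genes 174 in both. The dendritic list holds Flt3, which the sort selected against and the authors also used to sort progenitors. Flt3 had the highest level of that list in both libraries, over this region and at its promoter. T cell genes had 291 and 310 FPM, granulocyte genes 46.0 and 42.1, erythroid genes 198 and 186, and HSC genes 1400 and 1492. These sums are not scaled by gene length, so the lists cannot be set against one another. Mecom made up the largest part of the HSC sum. Of all gene bodies, counted without the 2 kb upstream, 9.17% were higher and 3.24% lower by 25%. Over the marker regions, 2 of the 8 B cell genes were lower and none was higher. None of the 8 dendritic and 8 macrophage genes was higher either, while 3 dendritic genes and 1 macrophage gene were lower by 25%. Of 8 T cell genes 2 were higher and 1 lower, of 8 granulocyte genes 1 was higher and 2 lower, and of 8 erythroid genes 2 were lower. Of the 8 HSC genes 1 was higher, Slamf1 with a ratio of 0.41, which encodes the sort marker CD150. Cells with a class II promoter fragment had one at a B cell marker promoter in 9.65% of cases in young and 7.83% in aged cells, beside 8.75% and 9.40% of the other cells, and at a dendritic cell marker promoter in 17.8% and 16.6%, beside 18.7% and 16.8%. The part of other cell types, and of the difference in fragment length, in the ratios above was not tested.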

How the data were processed

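Nuclei of sorted HSCs were processed by the authors with a 10x Genomics single-cell ATAC kit, and the reads were aligned to mm10 with Cell Ranger ATAC, with Signac named for later steps. The deposited files hold a list of unique fragments and, for every barcode, counts made by the authors, with no normalization in either. Fragments were read on chromosomes 1 to 19 and X. Start sites and gene bodies came from GENCODE M21 and sequences from the RefSeq GRCm38.p6 genome, the build of mm10. Each region took a fragment once when either of its ends was inside. Peaks were called here on kept cells (151-bp windows against the larger of the genome and 10-kb mean, Poisson, q under 0.001, at least 100 bp wide), 164570 in all, and 34641699 young and 26150866 aged fragments in them set the scale. Ratios had 1 fragment added to both libraries. Intervals are exact binomial for ratios and shares, and exact Poisson for levels.

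The thresholds were 50 fragments, 25% (a ratio of aged to young or of young to aged) for promoters and gene bodies and 1.5-fold for bins. Doublets were not called, and an upper limit of 12000 fragments in the authors' peaks was tried in place of 20000. Named were all members, list genes past 25% and the most open of each list, the most open bin or bins per locus (up to 3), and bins past 1.5-fold with at least 200 fragments. Members and lists were chosen with earlier results of these data known. Ratio, interval and threshold were tested on simulated counts that held counting error only, which says nothing about the spread between libraries or animals. Python 3.11.15, NumPy 2.4.6, SciPy 1.17.1 and, for TMM factors over promoters, edgeR 4.0.16 in R 4.3.3 were used. Single values of 1 marker gene are not reported here.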

Additional observations from a re-analysis of the deposited data

Results flagged for a closer look

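Barcodes not called as cells also held fragments at the members' promoters. They enter no main comparison above, and 123 young and 131 aged ones enter the alternative that takes any barcode within the limits. At the 4 class II promoters (H2-Ab1 at its coding start) they had 145 (young) and 156 (aged) fragments, or 93.2 (78.7 to 110) and 100.6 (85.4 to 118) per 1e6 in-peak fragments of those barcodes, beside 88.6 and 103 in the kept cells. At the class I promoters they had 208 (young) and 205 (aged) fragments, or 133.7 (116 to 153) and 132.2 (115 to 152), beside 140 and 132 in the kept cells. Of the 2976889 young and 5228796 aged nuclear fragments of these barcodes, 1555324 and 1550467 lay in peaks. That is a smaller share than the 69.2% and 67.6% of the kept cells, so levels per in-peak fragment hide this difference. With 1 library per age no group was large enough to look for outlying samples.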

How the results depend on the processing

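Scale (all nuclear fragments, fragments at protein-coding promoters, TMM factors), cells (all called, any barcode within the limits, upper limit 12000, without shared barcodes), fragment length, counting and window were varied. Single promoters and gene bodies moved past their counting interval in 5 of 288 recomputed values. Some of the 288 could not move. The minimum of fragments enters no ratio, and for H2-Aa, H2-Eb1, Cd74, Ciita promoter 3 and H2-K1 the coding start is the annotated start used above. Counting any overlap left the promoter ratios of these members as they were. At the start shared by the largest number of coding transcripts H2-Ab1 had 0.33, and H2-D1 had 0.43. Together the class I genes held fewer fragments at these starts than at the annotated 5' ends. That fall lay in the H2-D1 window, so its 0.43 does not describe its most open site. The number of member promoters higher by 25% was 1 with short fragments (7.80% of all promoters), and 0 with 2 kb on either side and 4 at coding starts, for which the share of all promoters was not computed. The number of gene bodies higher was 1 on the promoter scale (11.4% of all gene bodies) and 1 without the promoter window, where the share of all was not computed. The number of flank bins higher was 9 with short fragments and 152 with no minimum, and the number lower was 1 on the nuclear scale, 2 in all called cells, 1 with any barcode within the limits, 4 with short fragments, 1 by any overlap and 97 with no minimum. Of all bins 6.49% were higher and 6.52% lower with short fragments, and 26.5% and 23.5% with no minimum. On the nuclear scale 5.55% of all bins were lower, in all called cells 4.83%, with any barcode within the limits 4.71% and by any overlap 4.89%. The class II companions higher were 0 on the nuclear scale, 0 in all called cells, 0 with any barcode within the limits and 3 with no minimum, beside 8.39%, 9.36%, 9.79% and 17.9% of all promoters. The median of the promoter-binding factors was -0.038 on the promoter scale, -0.044 with TMM and -0.059 with short fragments, that of interferon-gamma signalling -0.043 and -0.050 on the first 2 of these, and 1 of the latter genes was lower with short fragments, beside 4.72% of all promoters. Thinned to 6000 fragments, class II shares were 30.6% and 34.3% and class I shares 43.9% and 41.7% in young and aged cells, and without thinning 45.1%, 52.1%, 60.9% and 59.97%. The causes of these shifts were not tested. No paired analysis was possible because each age has 1 library. For the same reason no replicate could be left out.

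Depth limits what is shown. A promoter with 700 to 900 fragments over each library has a counting interval near 0.15 on either side in log2, so that smaller differences were not detectable. The spread between animals is unknown. Peaks, thresholds and start sites are those set here, and any change in cell types within the sort cannot be told apart from a change within each cell.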
